A study of Homo sapiens with 6 samples.

Results

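The genes of activator protein 1 (AP-1) and 2 related factors were followed in MDA-MB-436 cells after silencing of MUC1. The 10 genes, of 37887 in the count table, were chosen by name, with earlier results of these data known. They were FOS, FOSB, FOSL1 and FOSL2, then JUN, JUNB and JUND, then BATF3, MAFF and EGR1. All 10 had enough counts to be tested, among 15355 genes. MDA-MB-436, a human cell line from triple-negative breast cancer with mutant BRCA1, had been given a MUC1 shRNA under tetracycline control, and both groups carried it. The 3 control libraries came from cells given 0.1% DMSO, and the 3 shMUC1 libraries from cells given doxycycline at 500 ng/ml, which switches the shRNA on. The titles speak of a control shRNA, but the treatment labels and the design text describe vehicle on the inducible MUC1 shRNA cells, and the latter was used. All doxycycline-treated cells here carried the MUC1 shRNA, and the labels give DMSO for the control group only. Silencing, other effects of the shRNA, doxycycline itself and DMSO therefore cannot be told apart. The length of treatment, and whether the line was a clone or a pool, are not given in the sources used here.

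AP-1 is a dimer of proteins that share a basic leucine zipper (bZIP), a DNA-binding stretch followed by a helix that pairs with a partner. JUN proteins pair with each other or with FOS proteins, whereas FOS proteins need a partner. FOS, FOSB, JUN, JUNB and EGR1 are textbook immediate early genes, transcribed within minutes of a growth factor or stress signal without new protein synthesis, and their mRNAs are short-lived. In triple-negative and mesenchymal breast cancer cells, FOSL1 (FRA-1) is known as an abundant AP-1 subunit that promotes invasion.

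The members' promoters were read from RefSeq (build GRCh38.p14), as 250 bases before and 50 after an annotated start. Of the 10 genes, 8 had at least 1 entry, while FOSL1 and BATF3 had none and were not searched. EGR1 and JUNB are shown because they carried the largest fall and the largest rise among the members. The CArG box, the cyclic AMP response element, the AP-1 site and the EGR site were searched on both strands, with the TATA box (TATAAA, read on the gene's strand) beside them, and capitals mark every match; no match overlapped another.
EGR1, chr5:138465229-138465528, plus strand: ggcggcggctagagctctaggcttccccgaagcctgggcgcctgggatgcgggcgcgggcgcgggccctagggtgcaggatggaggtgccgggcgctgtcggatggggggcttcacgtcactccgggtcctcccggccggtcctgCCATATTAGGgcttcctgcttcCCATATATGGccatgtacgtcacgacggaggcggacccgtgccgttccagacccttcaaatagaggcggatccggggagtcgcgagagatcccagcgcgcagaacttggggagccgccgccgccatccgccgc
JUNB, chr19:12791236-12791535, plus strand: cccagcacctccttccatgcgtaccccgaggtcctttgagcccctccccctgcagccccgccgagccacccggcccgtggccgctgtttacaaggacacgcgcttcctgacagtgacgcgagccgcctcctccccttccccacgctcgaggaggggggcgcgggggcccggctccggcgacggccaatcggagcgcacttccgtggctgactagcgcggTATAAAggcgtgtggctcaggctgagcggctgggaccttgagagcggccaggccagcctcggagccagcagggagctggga

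The EGR1 promoter held 2 CArG boxes, the element bound by serum response factor (SRF), which begin 105 and 83 bases before the start. None of the other members' promoter entries held one within this window, and 1.29% of 35116 promoters of this length did. Sequence more than 250 bases before the start was not searched, so a CArG box further upstream of another member would be missed. The JUNB promoter held a TATA box beginning 31 bases before the start, as FOS and FOSB did at 33 and 30 bases. Of all promoters, 7.33% held TATAAA at any position in the window, so that share is not matched for position. The cyclic AMP response element TGACGTCA was in JUND and in 1 of the 2 MAFF entries, 200 and 54 bases before the start, against 1.85% of all promoters. The AP-1 site TGACTCA was in FOSL2 (all promoters 4.95%). The EGR site GCGTGGGCG was in none of the members' promoter entries (all promoters 0.795%), which do not cover FOSL1 and BATF3. These matches describe letters in a window and are not measured binding.

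Short-lived mRNAs often carry AU-rich words in the 3' untranslated region (UTR), and these regions were read for each member from the GENCODE 29 transcript with the longest one. The word ATTTA was present in all 10 members and in 74.6% of 13020 tested genes with an annotated 3' UTR. The median over those genes was 1.71 per kb. Above it were FOS at 6.2, JUNB at 4, BATF3 at 2.68, MAFF at 2.45, JUN at 2.33 and FOSL2 at 1.85 per kb. Below it were JUND at 1.47, FOSB at 1.38, FOSL1 at 1.19 and EGR1 at 0.81 per kb. The longer word TTATTTATT was in FOS, FOSL2 and MAFF, or 3 of 10 members, against 9.69% of those genes. Its sites are shown in capitals, since FOS is the standard example of an mRNA with such an element.
FOS: gtttttaatTTATTTATTaagatggat
FOSL2: tttattttaTTATTTATTttaaatgtt
MAFF, first site: ccccactgtTTATTTATTgcacggatc
MAFF, second site: tcctagaatTTATTTATTtcctgactt

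A further word, ATCAGTA, was counted because genes that hold it were lower in the shMUC1 libraries. Their median log2 fold change was -0.13 over 1507 genes, against 0.0264 over the 11513 without it. Since the word was picked from these same values, the medians are no test of it, and UTR length was not matched. ATCAGTA was in no member, against 11.6% of those 13020 genes. Its shorter core TCAGTA was in JUN, JUND and EGR1, against 35.5%.

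Between the groups, FOSL1, FOSL2, JUN and EGR1 fell and JUNB, JUND and MAFF rose, while FOS, FOSB and BATF3 did not pass the test. The test was edgeR's quasi-likelihood test with an adjusted p under 0.05 over all 15355 genes. The 3 higher members compare with 25.2% of all tested genes called higher, and the 4 lower members with 23.6% called lower. The groups did not overlap in counts per 1000000 counts (CPM) for 7 members, against 54.8% of all tested genes, so shares of this size are close to the background. Of genes whose mean reached 100 counts, 58.4% were called in either direction, beside 7 of the 9 members that deep. The median log2 fold change (shMUC1 minus control) was 0.0164 over the members and 0.000583 over all tested genes. Only EGR1 also passed a fold change of 2, as did 5.95% of all tested genes. Since these are bulk libraries, fewer cells with a transcript and less of it per cell cannot be told apart.

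**Figure D1:**
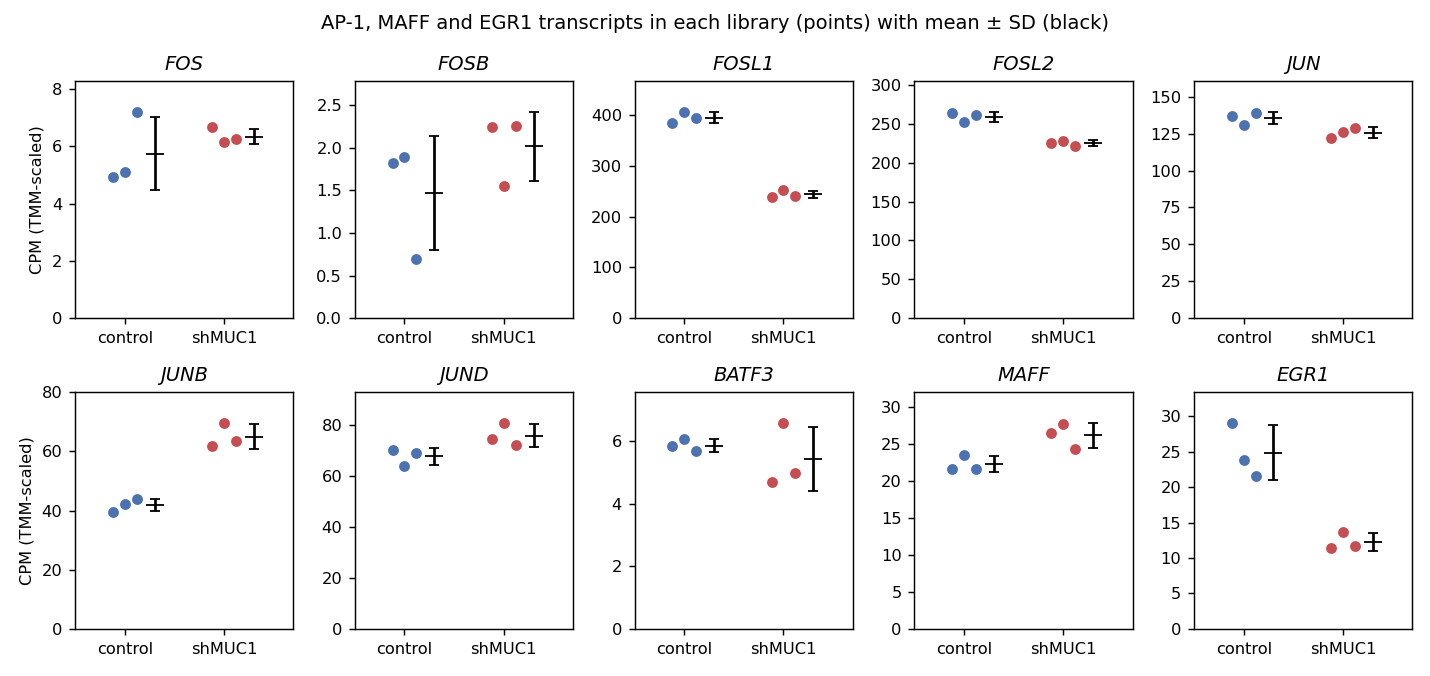
Each panel plots one gene, with TMM-scaled CPM on a linear vertical axis from 0, control libraries in blue, shMUC1 libraries in red and the group mean ± SD (n = 3) in black. EGR1, FOSL1 and FOSL2 lie lower in all 3 shMUC1 libraries and JUNB lies higher, whereas the points of FOS, FOSB and BATF3 overlap between groups.

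Among the FOS genes the abundant members fell. FOSL1 (chr11:65892049-65900573, minus strand, 4 exon blocks) was at 385, 406 and 394 CPM in control and at 238, 252 and 241 CPM in shMUC1 libraries. The means were 395 ± 10.3 and 244 ± 7.44 CPM (SD, n = 3 each), so every shMUC1 library lay far below every control library. The log2 fold change was -0.70 (SE 0.0335, adjusted p 1.84e-19), a level 1.62-fold lower. Of all tested genes, 8.33% had a lower log2 fold change. A listed pseudogene, FOSL1P1, had from 10 to 25 counts per library against from 4483 to 10181 for FOSL1, and how reads matching both were counted is not given in the sources used here.

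FOSL2 (chr2:28392448-28417312, plus strand) encodes FRA-2, the closest relative of FRA-1. It was at 264, 252 and 262 CPM in control and at 226, 228 and 222 CPM in shMUC1 libraries. The fall was small but larger than the spread, with a log2 fold change of -0.20 (SE 0.0339, adjusted p 5.86e-06) and no overlap between groups.

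FOS and FOSB, the members of this family that serum induces most quickly, were scarce. FOS (chr14:75278774-75282230, plus strand) was at 4.93, 5.09 and 7.20 CPM in control and 6.66, 6.14 and 6.24 CPM in shMUC1 libraries. The third control library lay above all 3 shMUC1 libraries and the other two lay below them. Its log2 fold change was 0.14, with a 95% interval from -0.17 to 0.45 (adjusted p 0.48), so a change of more than about 0.45 in either direction lies outside the interval. FOSB (chr19:45467995-45475179, plus strand) had 40, 46 and 18 counts in control and 62, 40 and 42 counts in shMUC1 libraries. At this depth its interval ran from -0.17 to 1.10 around a log2 fold change of 0.46 (adjusted p 0.232), and a fold change of 2 upwards was not excluded. Without the third control library the FOSB value was 0.10, so that library set most of its size.

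The JUN genes moved in different directions. JUN (chr1:58780788-58784327, minus strand, a single exon block) encodes c-Jun, the archetypal partner of FOS proteins. It was at 137, 131 and 139 CPM in control and at 122, 126 and 129 CPM in shMUC1 libraries. The highest shMUC1 library came close to the lowest control library without reaching it. The log2 fold change was -0.11 (SE 0.0399, adjusted p 0.0199). This call was lost with no low-count filter (adjusted p 0.051), without control replicate 1 (0.0653) and without shMUC1 replicate 1 (0.137).

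JUNB (chr19:12791496-12793315, plus strand, a single exon block) encodes a JUN protein that activates transcription less than c-Jun on many promoters and can oppose it. It was at 39.5, 42.3 and 43.8 CPM in control and at 61.9, 69.7 and 63.4 CPM in shMUC1 libraries. Means were 41.9 ± 2.14 and 65 ± 4.14 CPM (SD, n = 3 each), with a wide gap between the groups. JUNB rose by a log2 fold change of 0.63 (SE 0.0583, adjusted p 1.33e-11), or 1.55-fold, and 94.0% of tested genes had a lower log2 fold change. Its exons share 259 bases with HOOK2 on the opposite strand, and the strand setting of the counting is not given in the sources used here. HOOK2 had from 73 to 138 counts per library, beside from 867 to 1795 for JUNB, and did not pass the test (log2 fold change 0.24, adjusted p 0.279).

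JUND (chr19:18279760-18281622, minus strand, a single exon block) is the JUN gene that resting cells also express. It was at 70.5, 64.0 and 69.1 CPM in control and at 74.7, 81.1 and 72.2 CPM in shMUC1 libraries. All 3 shMUC1 libraries were the higher ones, by a narrow margin, with a log2 fold change of 0.17 (SE 0.0517, adjusted p 0.00763). The call was lost without control replicate 2 (adjusted p 0.0616) and without shMUC1 replicate 2 (0.0911).

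The 2 bZIP members outside the FOS and JUN families gave 1 rise. MAFF (chr22:38200767-38216511, plus strand) encodes a small MAF protein, which lacks an activation domain and pairs with itself, with NRF or with BACH proteins. It was at 21.7, 23.5 and 21.7 CPM in control and at 26.5, 27.8 and 24.4 CPM in shMUC1 libraries, without overlap. Its log2 fold change was 0.24 (SE 0.0789, adjusted p 0.0124), and the call was lost without control replicate 3 (adjusted p 0.0575) and without shMUC1 replicate 2 (0.0727). BATF3 (chr1:212686418-212699985, minus strand) encodes a short bZIP protein that pairs with JUN proteins and is best known in dendritic cells. It was at 5.84, 6.08 and 5.69 CPM in control and at 4.70, 6.60 and 5 CPM in shMUC1 libraries, where the second library was the highest of all 6 and the other two were the lowest. The log2 fold change was -0.11, with an interval from -0.42 to 0.21 (adjusted p 0.604).

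EGR1 (chr5:138465490-138469315, plus strand) encodes a zinc finger factor of the immediate early response, which is not a bZIP protein. It was at 29.1, 23.9 and 21.6 CPM in control and at 11.4, 13.7 and 11.7 CPM in shMUC1 libraries. The control libraries were more spread than for any other called member relative to their mean, yet the lowest of them stood well above the highest shMUC1 library. Means were 24.9 ± 3.84 and 12.2 ± 1.24 CPM (SD, n = 3 each). The log2 fold change was -1.02 (SE 0.102, adjusted p 1.24e-10), just past a fold change of 2, and its interval ran from -1.22 to -0.81. Without control replicate 1 the value was -0.89, without shMUC1 replicate 1 it was -0.95 and without shMUC1 replicate 3 it was -0.98, so that in these fits EGR1 kept its fall but no longer passed a fold change of 2. Of all tested genes, 3.98% had a lower log2 fold change.

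**Figure D2:**
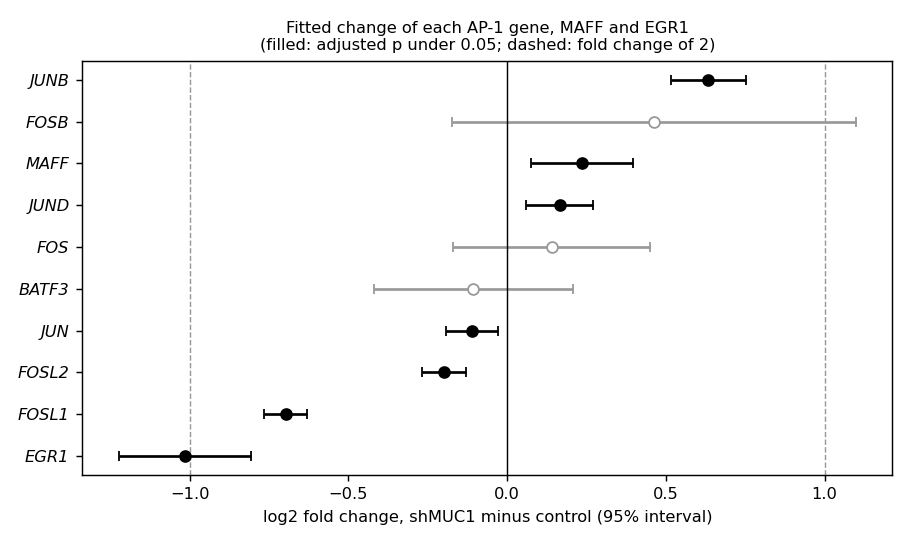
The horizontal axis gives the fitted log2 fold change (shMUC1 minus control) with its 95% interval for each gene, ordered by size, with filled points for an adjusted p under 0.05 and dashed lines at a fold change of 2. EGR1 at -1.02 and FOSL1 at -0.70 stand at one end and JUNB at 0.63 at the other, and the wide intervals of FOSB, FOS and BATF3 cross 0.

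To compare levels between genes, CPM was divided by the length of each gene's merged exons in kb. On this per-length scale FOSL1 was the most abundant member in control cells, at 209 ± 5.46 CPM per kb (SD, n = 3), and no other member exceeded 39.3 in any control library. JUN at 38.3, JUND at 36.4 and FOSL2 at 36.2 CPM per kb followed in control cells, and the ranges of neighbours in that order overlapped. JUNB at 23.0, EGR1 at 7.92 and MAFF at 3.98 CPM per kb came next, each apart from its neighbours. BATF3 at 2.16 and FOS at 1.77 overlapped, and FOSB was lowest at 0.265 CPM per kb. In shMUC1 cells FOSL1 was still first, at 129 ± 3.94 CPM per kb (SD, n = 3). JUND at 40.8 then stood above JUNB at 35.7, and JUNB, which in control cells lay below JUN and FOSL2, overlapped with JUN at 35.5. EGR1 and MAFF, which were apart in control cells, overlapped in shMUC1 cells at 3.90 and 4.67 CPM per kb. Merged exons count every annotated isoform, so the levels of genes with long alternative exons are understated on this scale.

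Summed over the 4 FOS genes, the per-length level was 243, 252 and 248 CPM per kb in control and 160, 168 and 161 CPM per kb in shMUC1 libraries. FOSL1 made up 84.6% ± 0.65 of that sum in control and 79.2% ± 0.473 in shMUC1 libraries (SD, n = 3 each), and FOSL2 14.6% ± 0.62 and 19.3% ± 0.358. The sum over the 3 JUN genes went the other way, with 98.2, 94.7 and 100 CPM per kb in control and 109, 117 and 110 CPM per kb in shMUC1 libraries. Within it JUNB took 23.5% ± 1.25 in control and 31.9% ± 0.672 in shMUC1 libraries (SD, n = 3 each). JUN took 39.2% ± 0.0824 and 31.7% ± 1.44. JUND took 37.3% ± 1.18 and 36.4% ± 1.05, which overlapped. The FOS sum was 2.53 ± 0.11 times the JUN sum in control and 1.46 ± 0.0242 times in shMUC1 libraries (SD, n = 3 each). Of the 10 sums, shares and ratios compared, all but the JUND share were without overlap. Each of those had p = 0.1 in the exact permutation test, two-sided (adjusted 0.111), the smallest that 3 against 3 libraries allow. The JUND share had an exact permutation p of 0.6. The 10 quantities are not separate results, since the shares within a family depend on each other and the ratio is made from both sums. The FOS and FOSB shares were without overlap although the levels of these genes overlapped between groups, and the FOSL2 share rose while its level fell. These are transcript levels and do not give the amounts of protein or of dimers.

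**Figure D3:**
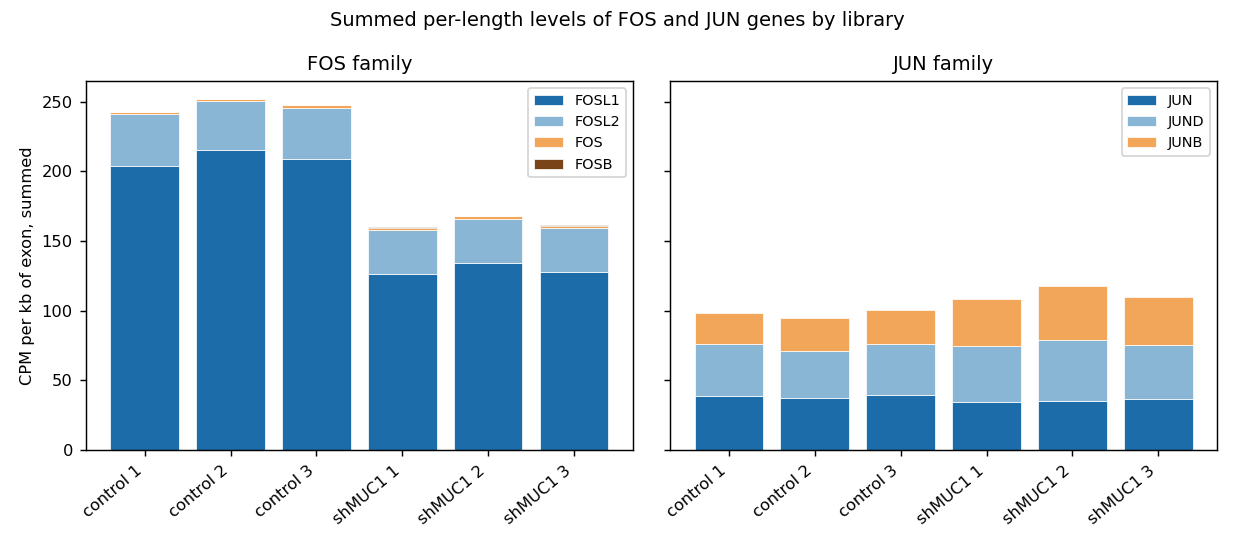
Stacked bars give CPM per kb of exon, from 0 on a shared linear axis, for the FOS genes (left) and the JUN genes (right) in each of the 6 libraries. The FOS bars drop from between 243 and 252 to between 160 and 168, mostly in the FOSL1 segment. The JUN bars grow mostly through the JUNB segment and less through JUND, while the JUN segment shrinks.

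Other bZIP proteins that can pair with the members were counted from a list of 22 genes, of which 21 were tested, with 4 higher (19%) and 10 lower (47.6%), against 25.2% and 23.6% of all tested genes, and a median log2 fold change of -0.11. ATF3, a stress-induced partner of JUN proteins that is itself an immediate early gene, rose from 11.7 ± 1.05 to 20.2 ± 1.72 CPM (SD, n = 3 each; log2 fold change 0.79, adjusted p 1.59e-08). CEBPD, a factor of acute inflammation, rose by 0.84 (adjusted p 0.000115) and BACH2, a repressor that pairs with small MAF proteins, by 0.63 (adjusted p 0.000188) on the log2 scale. NFE2L3 (NRF3), another partner of small MAF proteins, fell from 17.6 ± 1.11 to 8.26 ± 0.994 CPM (SD, n = 3 each; log2 fold change -1.10, adjusted p 9.08e-11). The paralogs of MAFF parted, with a log2 fold change of 0.60 for MAFK (adjusted p 3.25e-06) and -0.24 for MAFG (adjusted p 0.000326), both chosen after their values were seen.

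Among the other immediate early genes, more were called higher than lower. Of 28 listed, 25 were tested, with 12 higher (48%) and 5 lower (20%), against 25.2% and 23.6% of all tested genes, and the median log2 fold change was 0.29. NR4A3, an orphan nuclear receptor, was at 8.94, 10.1 and 9.52 CPM in control and at 19.9, 16.6 and 20.3 CPM in shMUC1 libraries (log2 fold change 0.99, adjusted p 4.68e-10). BTG2, an antiproliferative gene, rose from 5.30 ± 0.483 to 10.9 ± 1.14 CPM (SD, n = 3 each; log2 fold change 1.03, adjusted p 2.43e-08). CSRNP1, a nuclear factor, rose from 24.7 ± 0.524 to 44.9 ± 4.07 CPM (SD, n = 3 each; log2 fold change 0.87, adjusted p 6.34e-13). DUSP1, a phosphatase that inactivates MAP kinases, rose by 0.29 on the log2 scale (adjusted p 3.04e-06). IER2 had a log2 fold change of -0.18 and missed the threshold (adjusted p 0.0552).

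The relatives of EGR1 were scarce. EGR2 had from 2 to 12 counts per library and was not tested. EGR3 had 6, 20 and 15 counts in control and 20, 26 and 34 in shMUC1 libraries, with overlap at 20. Its log2 fold change of 1.02, opposite in sign to that of EGR1, only just passed the test (adjusted p 0.0497). Requiring a mean of at least 50 counts left EGR3 untested, since its mean was 20.2 counts. NAB2, which binds EGR1 and represses its activity, had a log2 fold change of -0.15 and did not pass the test (adjusted p 0.244).

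**Figure D4:**
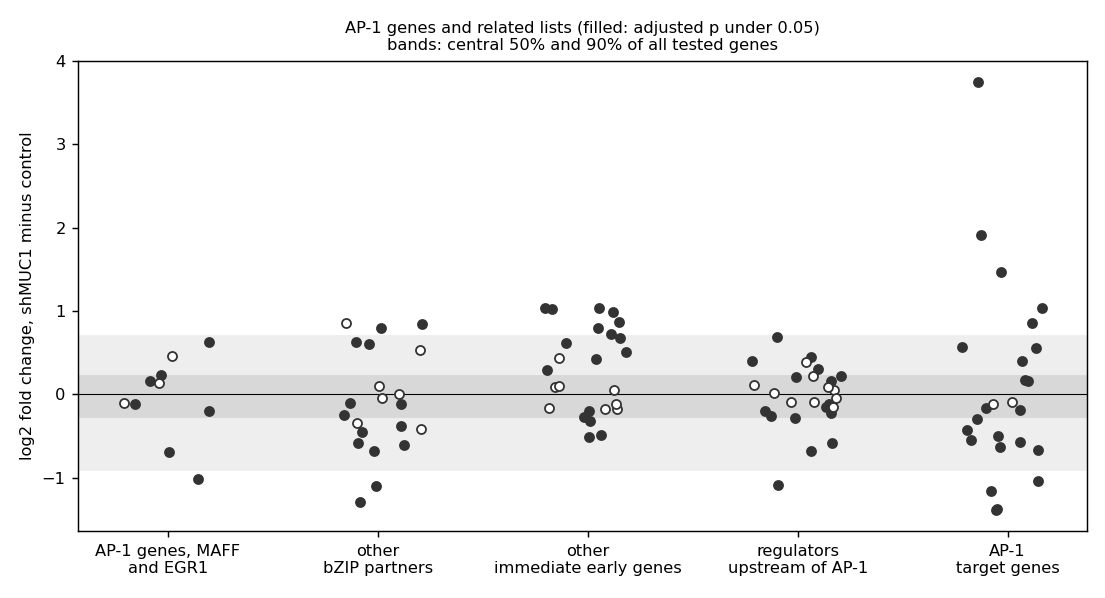
The vertical axis gives the log2 fold change (shMUC1 minus control) of each tested gene in 5 columns, the 10 members at the left and 4 lists beside them, filled where the adjusted p was under 0.05. Grey bands hold the central 50% (from -0.272 to 0.224) and 90% (from -0.907 to 0.698) of all tested genes; EGR1 is the member that lies outside the wider band, while the AP-1 targets reach from -1.39 to 3.75.

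Among kinases and factors upstream of AP-1 and EGR1, 26 of 27 were tested, with 7 higher (26.9%) and 9 lower (34.6%), against 25.2% and 23.6% of all tested genes, and a median log2 fold change of -0.0122. SRF, which binds CArG boxes such as those in the EGR1 promoter shown above, was at 54.4, 60.1 and 58.7 CPM in control and at 72.2, 72.3 and 69.9 CPM in shMUC1 libraries, a rise of 0.31 on the log2 scale (adjusted p 4.17e-06). ELK3, a factor that binds beside SRF and can repress, fell from 78.0 ± 6.28 to 36.6 ± 2.29 CPM (SD, n = 3 each; log2 fold change -1.09, adjusted p 1.16e-17). RPS6KA1 (RSK1), a kinase downstream of ERK, rose by 0.69 on the log2 scale (adjusted p 8.03e-13). RPS6KA5 (MSK1), which phosphorylates histone H3 at immediate early genes, had a log2 fold change of -0.68 (adjusted p 2.85e-06). MAPK9 (JNK2), one of the kinases that phosphorylate c-Jun, had one of -0.58 (adjusted p 5e-15).

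AP-1 target genes changed in both directions. Of 28 listed, 25 were tested, with 10 higher (40%) and 13 lower (52%), against 25.2% and 23.6% of all tested genes, and a median log2 fold change of -0.16. The called targets that also passed a fold change of 2 were evenly split, with 4 higher and 4 lower, although most of those named below fell. PLAU, the urokinase that starts plasmin formation, was at 220, 220 and 218 CPM in control and at 102, 113 and 107 CPM in shMUC1 libraries (log2 fold change -1.03, adjusted p 1.38e-22). Its receptor PLAUR fell by 0.43 (adjusted p 0.000204), and CCND1, the G1 cyclin D1, by 0.30 (adjusted p 2.22e-09) on the log2 scale. HMOX1, a heme-degrading enzyme, fell by 1.38 (adjusted p 1.22e-15) and the cytokine gene IL11 by 1.16 (adjusted p 1.43e-07). The largest value of the list was in AREG, an EGF receptor ligand named after its values were seen, which had 8, 23 and 11 counts in control and 202, 176 and 179 in shMUC1 libraries (log2 fold change 3.75, adjusted p 2.09e-15). Such targets answer to many other factors, so their counts do not measure AP-1 activity.

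Libraries held from 18678307 to 27825546 counts, the smallest being shMUC1 replicate 3. The targeted gene, MUC1, fell from 3.88 ± 0.401 to 2.14 ± 0.412 CPM (SD, n = 3 each; log2 fold change -0.84, adjusted p 0.00119). ESR1 and PGR had 12 counts or fewer in every library, as the triple-negative label describes, while ERBB2 was at 44.7 CPM in control. Of 6 blood and endothelial markers, 2 were tested (PTPRC higher, PECAM1 lower) and CD3E was at 0 in every library, and their summed level was from 2.17 to 2.67 CPM in control and from 1.66 to 2.17 CPM in shMUC1 libraries. The 5 genes listed as markers of a mesenchymal breast line, VIM, EGFR, CD44, SPARC and AXL, were all called lower, against 23.6% of all tested genes. Their sums were from 3180 to 3270 CPM in control and from 2470 to 2540 CPM in shMUC1 libraries. The log2 fold changes ran from -1.97 for SPARC, which had only 26 to 48 counts per control library, to -0.16 for CD44. That list was chosen only to check the cell label and shares CD44 and AXL with the AP-1 targets. Its part in the changes of the AP-1 genes was not tested.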

How the data were processed

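RNA-seq was performed on 6 libraries made from Trizol total RNA with a stranded mRNA kit. Raw counts, 1 row per gene symbol and 1 column per library, were deposited by the authors. The submitters' processing notes name CASAVA 1.8.2, STAR 2.7.9a, featureCounts, DESeq2 1.24.0 and GRCh38.p7, while the annotation and strand setting are not given in the sources used here. The counts of all libraries were fitted here in edgeR 4.0.16 by quasi-likelihood (R 4.3.3; TMM scaling, filterByExpr, group as the only term), two-sided, with Benjamini-Hochberg adjustment over all 15355 genes that passed the filter. SE were derived from the F statistic. The study used DESeq2, which was run as an alternative (1.42.0), as were limma-voom (limma 3.58.1), other scalings and filters, a replicate block, mitochondrially encoded genes left out and each library left out in turn. The scripts were tested on simulated data. Between 68.8% and 70.5% of counts from 1 to 20 were even in each library, and halved counts were tried for that reason. Cells were cultured in triplicate per the labels, and p-values measure only the spread between these libraries.

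The members, lists, motifs and tests were chosen with earlier results of these data known. All members were named. From each list, the 4 largest changes with an adjusted p under 0.05 and a mean of at least 100 counts were named, plus ATF3, EGR2, EGR3, IER2, DUSP1, SRF, NAB2, PLAU, PLAUR and CCND1. One gene that this rule names is not reported here. Gene positions and exon lengths came from GENCODE 29 (GRCh38), in which all 10 members were found.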

Additional observations from a re-analysis of the deposited data

How the results depend on the processing

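FOSL1, FOSL2, JUNB and EGR1 kept their direction and their call in all 15 alternatives run for each, with log2 fold changes from -0.72 to -0.68, from -0.22 to -0.18, from 0.58 to 0.67 and from -1.12 to -0.89. FOS and BATF3 were not called in any of 15 alternatives, nor FOSB in any of 14, since a mean of at least 50 counts left it untested. FOS ran from 0.05 to 0.33, FOSB from 0.10 to 0.70 and BATF3 from -0.28 to -0.00039. With no low-count filter JUN lost its call, at -0.10 (adjusted p 0.051), and the cause was not tested. Leaving out 1 library at a time, JUN ran from -0.13 to -0.0864, JUND from 0.12 to 0.20 and MAFF from 0.20 to 0.29, with the calls lost that are given beside each gene. The number of higher members then ran from 1 to 3, with 1 (JUNB) left without shMUC1 replicate 2, that of lower members from 3 to 4, and that past a fold change of 2 from 0 to 1. The counts over the 4 lists stayed within 1.5 times of their values in every alternative, and the family sums moved by less than the spread between replicates. Replicate numbers did not pair the libraries: deviations of same-numbered libraries correlated at 0.0179, -0.0308 and -0.0361, and only the first pair was the best match of its libraries. With a replicate block, 3885 genes were called higher and 3591 lower, EGR1 was at -1.02, and no member changed its call. Depth limits FOSB most, with 62 counts or fewer in every library. Intervals cover the fitted spread between libraries, not differences between cultures on other days.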
